A study of Mus musculus with 6 samples.

Results

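The genes described here are 5 that mark or build regulatory T cells: Foxp3, Ikzf2, Il2ra, Tnfrsf18 and Tnfrsf4. They were chosen by name and read in 4 fixed stretches of mouse build mm9, with Tnfrsf18 and Tnfrsf4 as neighbours in one stretch. The stretches cover 335 of the 2641864 bins of 1 kb on chromosomes 1 to 19, X and Y. Foxp3 was read at chrX:7145001-7180000 (35 kb), Il2ra at chr2:11555001-11620000 (65 kb), Ikzf2 at chr1:69555001-69745000 (190 kb) and Tnfrsf18 with Tnfrsf4 at chr4:155390001-155435000 (45 kb).

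The study mapped H3K4me3 and H3K36me3 in mature CD4+ and mature CD8+ T cells taken from the thymus of C57BL/6 mice. Each cell type has 1 H3K4me3 library, 1 H3K36me3 library and 1 library of nuclease-cut chromatin sequenced without antibody, called input. The labels give no age, sex, number of animals or sorting gate, and no group has a replicate, so no p-value is given. The libraries held 10728764 H3K4me3 and 6730337 H3K36me3 reads in CD4 cells and 12114294 and 6758121 reads in CD8 cells, and the inputs 10171739 reads in CD4 and 9976535 reads in CD8. Far from any enrichment, H3K4me3 reads came to 19.2% of input in CD4 cells and to 1.20% in CD8 cells, so a few CD4 reads in a bin can be background. H3K36me3 reads came to 31.7% of input there in CD4 and 32.5% in CD8. A level under the input can thus lie above background, most of all for H3K4me3 in CD8.

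Regulatory T cells are CD4+ cells that restrain other T cells, and part of them arise in the thymus. Foxp3 is the transcription factor that defines them, and Ikzf2 encodes Helios, a zinc finger factor of the Ikaros family found in many of them. Il2ra encodes CD25, the alpha chain of the interleukin-2 receptor, and Tnfrsf18 and Tnfrsf4 encode GITR and OX40, costimulatory receptors of the TNF receptor family that regulatory cells carry and that other T cells gain on activation. H3K4me3 marks promoters in use or ready for use, and H3K36me3 is laid down over gene bodies as they are transcribed. A CD4+ sort of the thymus may hold a regulatory fraction. In such bulk chromatin, fewer cells with a mark and less of the mark per cell cannot be told apart.

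RefSeq promoter windows, which run from 250 bases before an annotated start to 50 bases after it, were found for 4 of the 5 genes, 5 windows in all, with 2 windows for Foxp3. They are shown because H3K4me3 is a promoter mark and its results come first. Their build is GRCm38.p6, another build than the mm9 positions of the reads, so no read was placed on them. Capitals mark CG, TATAAA and TTCNNNGAA, read on both strands; a CG inside a longer match lies within its capitals.
Foxp3, chrX:7579426-7579725, plus strand: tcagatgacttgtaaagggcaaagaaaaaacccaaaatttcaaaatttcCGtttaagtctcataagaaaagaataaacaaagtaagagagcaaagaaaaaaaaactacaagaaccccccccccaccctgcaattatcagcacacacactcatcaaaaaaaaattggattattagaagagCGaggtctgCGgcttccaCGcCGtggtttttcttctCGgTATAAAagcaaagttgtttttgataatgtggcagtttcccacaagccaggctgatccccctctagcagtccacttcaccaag
Il2ra, chr2:11642542-11642841, plus strand: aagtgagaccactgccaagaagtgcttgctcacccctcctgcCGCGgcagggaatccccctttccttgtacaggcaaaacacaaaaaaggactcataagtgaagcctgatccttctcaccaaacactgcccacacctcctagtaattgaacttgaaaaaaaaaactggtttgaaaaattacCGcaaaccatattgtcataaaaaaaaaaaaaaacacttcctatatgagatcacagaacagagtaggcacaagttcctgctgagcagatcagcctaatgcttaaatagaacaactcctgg
Tnfrsf18, chr4:156026072-156026371, plus strand: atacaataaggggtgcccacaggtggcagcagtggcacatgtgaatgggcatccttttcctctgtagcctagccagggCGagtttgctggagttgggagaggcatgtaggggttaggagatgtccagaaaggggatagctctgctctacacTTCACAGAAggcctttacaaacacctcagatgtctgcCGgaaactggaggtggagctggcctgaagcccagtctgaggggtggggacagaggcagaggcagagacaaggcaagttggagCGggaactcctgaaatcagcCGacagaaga
Tnfrsf4, chr4:156013445-156013744, plus strand: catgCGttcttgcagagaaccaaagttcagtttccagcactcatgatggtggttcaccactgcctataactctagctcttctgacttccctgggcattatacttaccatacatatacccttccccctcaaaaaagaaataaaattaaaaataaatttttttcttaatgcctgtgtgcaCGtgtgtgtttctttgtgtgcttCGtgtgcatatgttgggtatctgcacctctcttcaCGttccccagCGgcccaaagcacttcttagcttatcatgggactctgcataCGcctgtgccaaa
CG, the target of DNA methylation, occurred 6 times in the Foxp3 window shown and 8 times in the other Foxp3 window, 3 times in Il2ra, 4 times in Tnfrsf18 and 6 times in Tnfrsf4. The median over 32817 RefSeq promoter windows of the same length was 7. TATAAA occurred once, 32 bases before the annotated start of the Foxp3 window shown, and 13.6% of all windows hold it. TTCNNNGAA, the letters of STAT binding sites, occurred in Tnfrsf18 and in the Foxp3 window not shown, against 8.29% of all windows. TGTGGT and TGANTCA, which 16.8% and 7.81% of all windows hold, were in none of the 5. These are matches of letters and show no binding.

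A bin was taken as enriched for H3K4me3 with 10 reads or more and a level, as a share of all reads of the library, 4 or more times that of the input of the same cells, where an input under 3 reads was set to 3. By that rule CD4 cells had 36 enriched bins in the 4 loci and CD8 cells 14, which is 10.7% and 4.18% of their 335 bins. Over the genome 1.33% of bins were enriched in CD4 and 1.16% in CD8. Adjacent bins enriched in either cell type formed 13 peaks, of which all 13 had an enriched bin in CD4 and 7 had one in CD8. CD4 over CD8 ratios were scaled to the median of bins enriched in both, and a difference was called from a fold of 2 upward, where an exact interval of the ratio, wider than the 95% one printed, excluded 1. On that rule 8 of the 13 peaks were higher in CD4, or 61.5%, and 0 were higher in CD8. Of the 13 peaks 6 were enriched in CD4 alone. They entered only through that library, so the filter favoured their call as higher in CD4. Over all 19076 peaks of the genome the rule called 22% higher in CD4 and 4.71% higher in CD8. Of the 37 bins enriched in either cell type 29 were called higher in CD4, or 78.4%, and 0 higher in CD8, while over the genome 26.6% of such bins were called higher in CD4 and 6.79% higher in CD8. With total-read scaling in its place, the genome had 7516 bins higher in CD4 and 5911 higher in CD8, against 9946 and 2536. In the loci 23 of the 37 bins, or 62.2%, were enriched in CD4 alone and 1 in CD8 alone. Over the genome the shares of enriched bins were 17.9% and 6.07%. The 23 bins entered through the CD4 library alone, so the filter favoured their call as higher in CD4 too. Intervals in the text are 95% intervals from counting error alone, and they set 1 library against another.

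**Figure D1:**
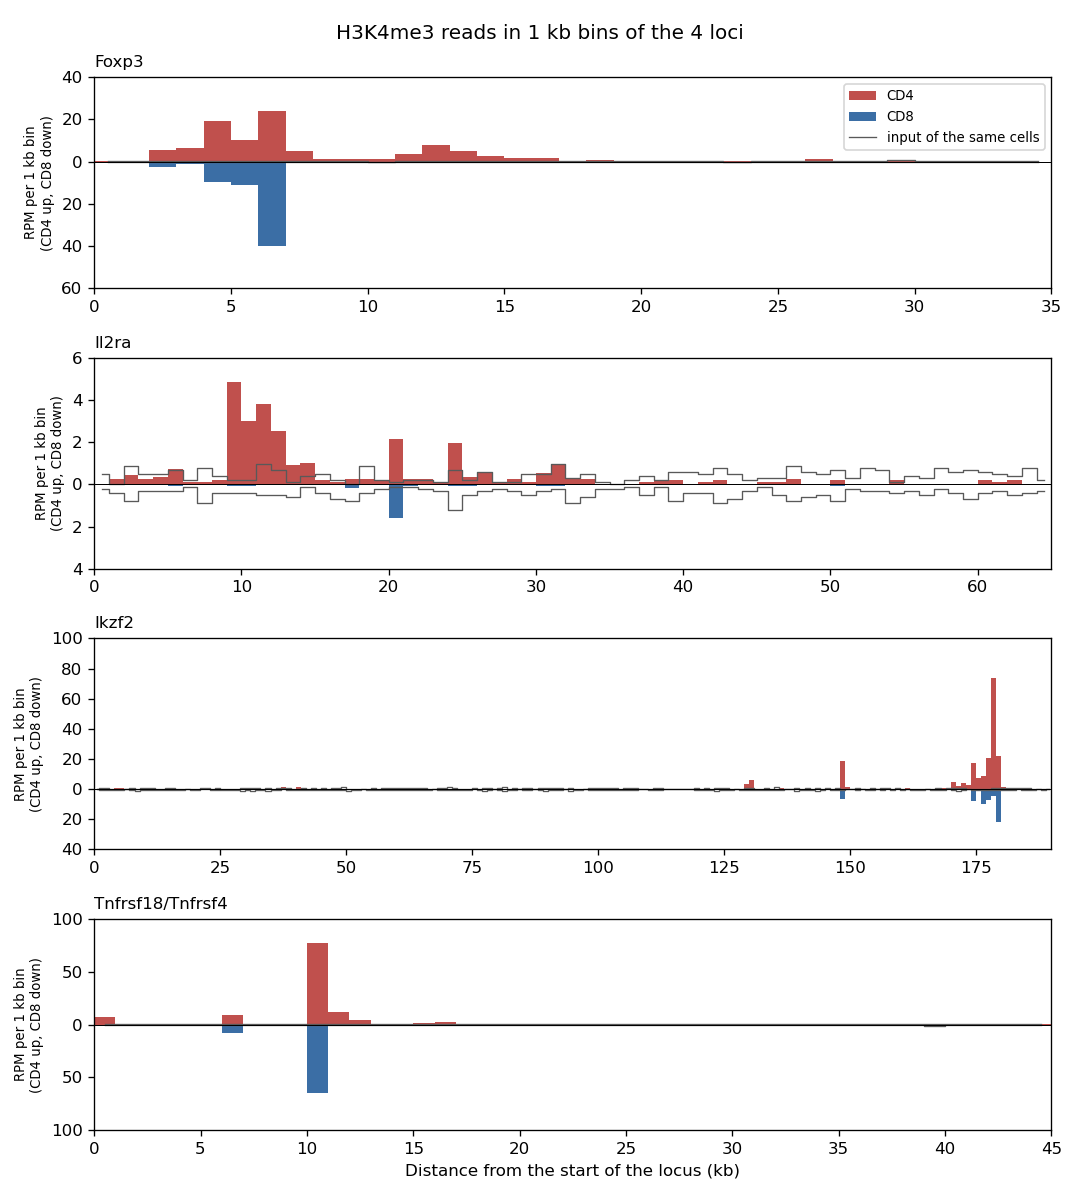
H3K4me3 in RPM (reads scaled to the total of the library) in each 1 kb bin of the 4 loci, CD4 upward and CD8 downward, against distance from the start of the locus in kb, with the input of the same cells as a grey line and a separate vertical scale per locus. The Foxp3 peak near 12 kb and the Il2ra peak near 10 kb appear in CD4 with almost no CD8 reads, while the highest Tnfrsf18/Tnfrsf4 bin has 832 CD4 and 787 CD8 reads.

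The Foxp3 locus held a peak present in both cell types and, to its right, a peak enriched in CD4 alone. In RefSeq the genes lie in the order Ppp1r3f, the non-coding RNA Flicr, Foxp3 and Ccdc22 along the chromosome, and with no mm9 annotation used here neither peak was tied to a start. The shared peak, chrX:7147001-7153000, had 758 CD4 and 785 CD8 H3K4me3 reads, against 9 input reads in each cell type. CD4 was 1.39-fold higher after scaling (1.25 to 1.54), which was not called. With total-read scaling the log2 ratio was 0.12 (-0.02 to 0.27), against 0.47. The second peak, chrX:7155001-7162000, had 254 CD4 reads over 15 input reads and 7 CD8 reads over 20 input reads. CD4 was thus 16.1-fold over input and CD8 at 0.288 times the input. The ratio between the cell types was 52.2 (25 to 131). The background level would give 3.03 CD4 and 0.292 CD8 reads in this stretch, so the CD8 reads exceeded their background too.

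Each of the 7 bins of the second Foxp3 peak was enriched in CD4 and none was enriched in CD8. The highest, chrX:7157001-7158000, had 85 CD4 and 2 CD8 reads, a ratio of 61.1 (16.4 to 513). The bins on either side of it had 41 and 52 CD4 reads, against 1 and 3 CD8 reads. The 254 CD4 reads lay on 224 start positions, so few of them were repeats. In the shared peak 4 of the 6 bins were called higher in CD4. The 3 at its left had 58, 71 and 208 CD4 reads, against 32, 14 and 118 CD8 reads. The fourth had 109 and 135 reads and was not called. The highest bin, chrX:7151001-7152000, had 257 CD4 and 482 CD8 reads, a ratio of 0.767 (0.656 to 0.894), which was not called. The last bin to the right had 55 and 4 reads, a ratio of 19.8 (7.30 to 75.1).

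Ikzf2, the widest of the loci, had the largest number of H3K4me3 reads of the 4 loci in CD4, 2343 against 751 in CD8, and 5 peaks, all called higher in CD4. The main peak, chr1:69727001-69735000, lay near the right end of the locus and was 8 kb wide. It had 1678 CD4 reads over 28 input reads and 644 CD8 reads over 34 input reads, a ratio of 3.75 (3.42 to 4.11). All 8 of its bins were enriched in CD4 and 5 in CD8. The highest bin, chr1:69733001-69734000, had 791 CD4 and 59 CD8 reads, a ratio of 19.3 (14.8 to 25.6). The bin to the right of it had 235 and 261 reads, a ratio of 1.29 (1.08 to 1.55), and chr1:69731001-69732000 had 96 and 121 reads, a ratio of 1.14 (0.863 to 1.5). Neither of those was called, and both bins were enriched in CD8 as well.

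The 4 smaller Ikzf2 peaks lay to the left of the main one. The peak at chr1:69703001-69705000 had 213 CD4 and 80 CD8 reads, a ratio of 3.83 (2.95 to 5.01), and its left bin was enriched in both cell types. At chr1:69684001-69686000 there were 103 CD4 reads and 3 CD8 reads, a ratio of 49.4 (16.4 to 243). At chr1:69725001-69726000 there were 51 and 2 reads, a ratio of 36.7 (9.64 to 311). The last, chr1:69595001-69596000, had 13 CD4 reads and 1 CD8 read, a ratio of 18.7 (2.81 to 794). It lost its call when 1 read was kept per start position, with a log2 ratio of 3.64, and was not found under 5 of the other settings.

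Il2ra had the fewest H3K4me3 reads, 321 in CD4 and 30 in CD8 over its 65 kb, against 286 and 275 input reads. The background level would give 57.8 reads in CD4 and 4.01 in CD8. The first peak, chr2:11564001-11566000, had 84 CD4 reads over 4 input reads and 2 CD8 reads over 8 input reads, a ratio of 60.4 (16.2 to 507). CD4 was 19.9-fold over input and CD8 at 0.206 times the input. In this peak the background level would give 0.809 CD4 and 0.117 CD8 reads. CD4 reads went on to the right of it, with 41 and 27 reads in the next 2 bins against 0 CD8 reads in both. Those bins were 3.89-fold and 3.66-fold over the CD4 input and missed the enrichment rule. The count of enriched CD4 bins at Il2ra depended on the rule, and was 8 with 1 read per start position and 6 with pooled inputs in place of 3.

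A second Il2ra peak, chr2:11575001-11576000, was present in both cell types, with 23 CD4 and 19 CD8 reads over 1 input read each. The ratio of 1.74 (0.907 to 3.38) was not called, and the interval includes equal levels. It was the only Il2ra bin enriched in CD8, and was not enriched in CD8 under the stricter fold or the higher read minimum.

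At the Tnfrsf18/Tnfrsf4 locus the strongest peak was shared and the peak at the left edge was not. In RefSeq the order of the protein-coding genes is Sdf4, Tnfrsf4, Tnfrsf18 and Ttll10. The strongest peak, chr4:155400001-155403000, had 1005 CD4 reads over 17 input reads and 799 CD8 reads over 18 input reads, a ratio of 1.81 (1.65 to 1.99), which was not called. Its first bin had 832 CD4 and 787 CD8 reads, a ratio of 1.52 (1.38 to 1.68). The next bin had 125 and 12 reads, a ratio of 15.0 (8.28 to 29.8). The third had 48 CD4 reads and 0 CD8 reads, a ratio with a lower 95% limit of 18.0, or 23.0 with CD8 set to a floor of 3 reads per library.

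The peak at the left edge, chr4:155390001-155391000, had 78 CD4 reads over 2 input reads and 0 CD8 reads over 6 input reads. The lower 95% limit of the ratio was 29.7, and with CD8 set to the same floor it was 37.4. The locus as defined cuts this peak, which continues for 3 kb to its left. The whole run, chr4:155387001-155391000, had 524 CD4 and 6 CD8 reads over 17 and 18 input reads, a ratio of 126 (57.3 to 344). Of the other 2 peaks, chr4:155396001-155397000 had 95 CD4 and 100 CD8 reads, a ratio of 1.37 (1.02 to 1.83), and chr4:155405001-155407000 had 45 and 33 reads, a ratio of 1.96 (1.22 to 3.17). Neither was called. The left bin of that last peak, with 14 CD4 and 20 CD8 reads over 4 and 1 input reads, was the bin enriched in CD8 alone.

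**Figure D2:**
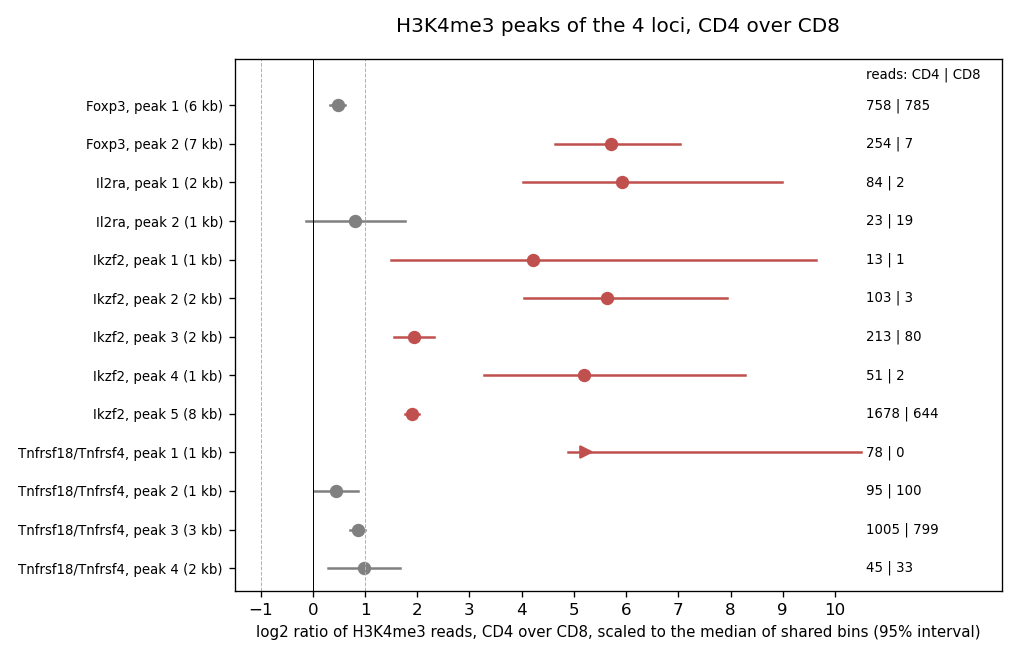
Log2 ratio of H3K4me3 reads, CD4 over CD8, with its 95% counting interval for the 13 peaks in genome order within each locus, and the CD4 and CD8 reads at the right. Red marks the 8 peaks called higher in CD4 and grey the other 5; the arrowhead is the ratio with CD8 set to 3 reads, with no upper limit, and dashed lines mark 2-fold.

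Across the 4 loci, reads in enriched bins gave CD4 over CD8 ratios of 7.33 at Il2ra (4.56 to 12.3), 4.05 at Ikzf2 (3.72 to 4.42), 1.89 at Tnfrsf18/Tnfrsf4 (1.73 to 2.06) and 1.84 at Foxp3 (1.67 to 2.02). Il2ra and Ikzf2 were called, while of all stretches with an enriched bin and as wide as Il2ra 18.6% were higher in CD4 and 3.17% in CD8, and of those as wide as Ikzf2 14.3% and 1.64%. Tnfrsf18/Tnfrsf4 and Foxp3 did not differ from each other beyond counting error and were not called. The Tnfrsf18/Tnfrsf4 sum leaves out the part of its edge peak beyond the locus, with 446 CD4 and 6 CD8 reads. It thus depends on where the locus was cut, and the locus ratio with those reads was not computed. Of stretches as wide as Tnfrsf18/Tnfrsf4 19.2% were higher in CD4 and 3.63% in CD8, and of those as wide as Foxp3 20.2% and 3.89%. Foxp3 crossed the threshold with 1 read per start position, at a log2 ratio of 1.09 against 0.88, and Tnfrsf18/Tnfrsf4 with the stricter fold over input, at 1.0 against 0.92. The Il2ra value depended on which bins were summed, with a log2 ratio of 2.87 as given, 3.65 with pooled inputs, 3.94 over the whole locus and 6.00 with the stricter fold, which leaves out the shared peak. At all 4 loci the sums mix shared peaks with peaks enriched in CD4 alone.

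In the 4 peaks of at least 3 bins, 2 of the 4 highest bins were called higher in CD4, and 17 of the 20 other bins, or 85.0%. Most of these other bins were enriched in CD4 alone, as was the highest bin of the second Foxp3 peak, so the filter favoured their call. Over the genome 10.9% of highest bins and 35.7% of the other bins of such peaks were called higher in CD4, and 8.45% and 6.77% higher in CD8. Repeated reads differed between whole libraries: 54.4% of H3K4me3 reads in CD4 and 31.4% in CD8 had distinct starts, against over 91% in the H3K36me3 and input libraries. With 1 read kept per start position the genome-wide log2 centre of the CD4 over CD8 read ratio was -0.06 in place of -0.52. The CD4 reads of the shared Tnfrsf18/Tnfrsf4 peak lay on 425 start positions, 2.36 reads to each, and the CD8 reads on 245, 3.26 to each. With 1 read kept per start position, all peaks but the smallest of Ikzf2 kept their side of the threshold. The log2 ratios of the called peaks were lower that way, with 5.06 against 5.71 at the second Foxp3 peak, 5.27 against 5.92 at the first Il2ra peak and 4.56 against 5.22 at the left edge of Tnfrsf18/Tnfrsf4. The Ikzf2 peaks, in the order of the chromosome, had 3.64, 4.70, 1.30, 4.61 and 1.29, against 4.22, 5.63, 1.94, 5.20 and 1.91. These falls include the move of the centre, which lowers every log2 ratio by the same amount. The reads of the first Il2ra peak went from 84 in CD4 and 2 in CD8 to 74 and 2. In the second Foxp3 peak and the first Il2ra peak there were 1.13 and 1.14 CD4 reads to each start position, and 1 CD8 read to each.

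**Figure D3:**
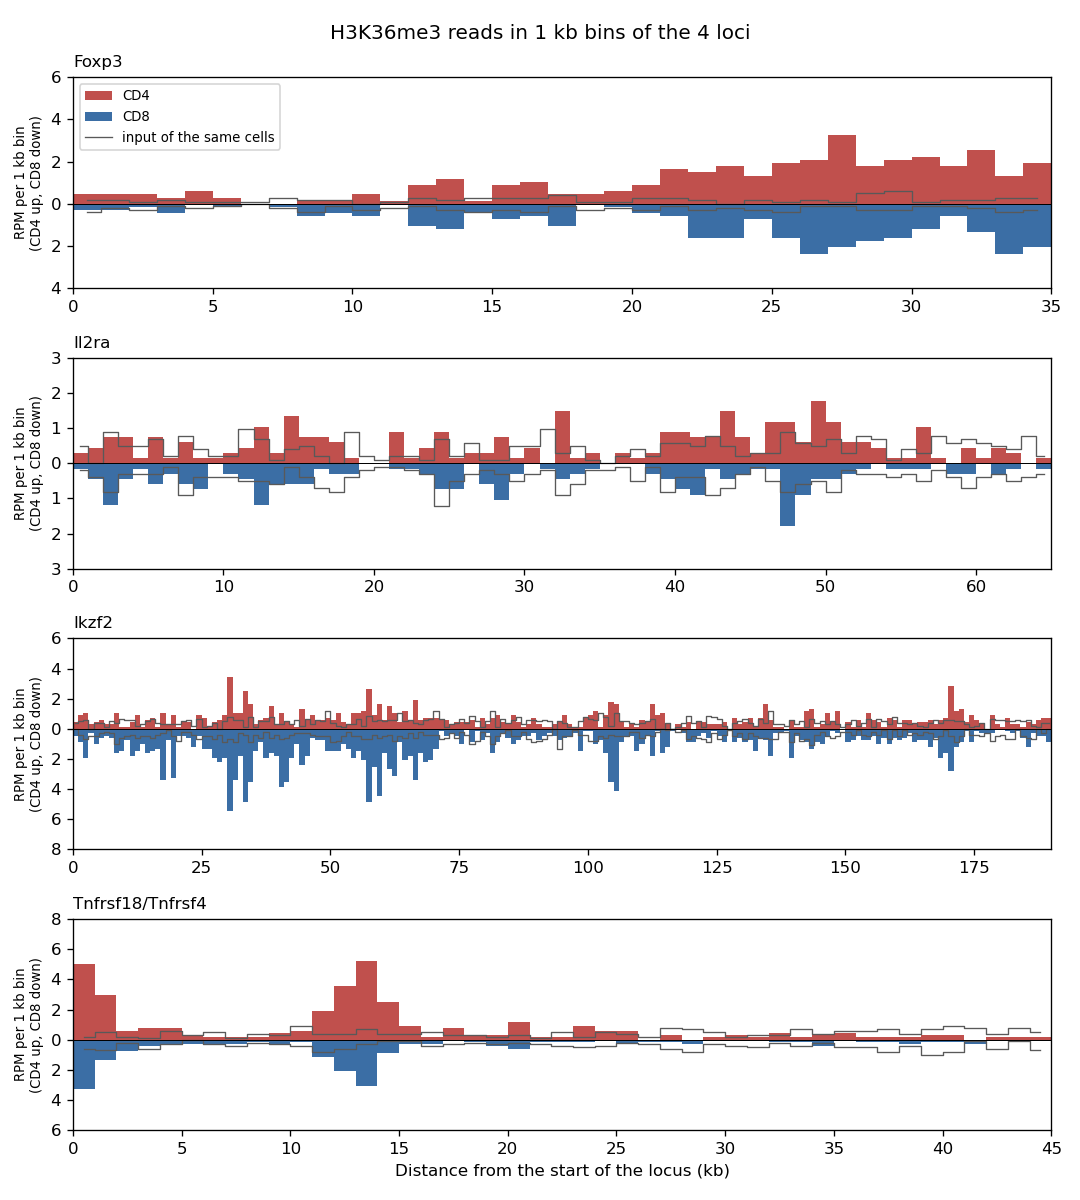
H3K36me3 in RPM in each 1 kb bin of the 4 loci, CD4 upward and CD8 downward, against distance from the start of the locus in kb, with the input of the same cells as a grey line. CD8 bars exceed CD4 bars over the left part of Ikzf2, and at Il2ra both stay near the input.

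H3K36me3 gave a different order of the loci. Windows of 10 kb were taken as enriched from 20 reads and 2 times the input, which 10.3% of windows met in CD4 and 10.2% in CD8. Over the genome 2.08% of the 30253 windows enriched in either cell type were called higher in CD4 and 0.84% higher in CD8. The 4 loci held 31 windows. Enriched in either cell type were 3 at Foxp3, 0 at Il2ra, 11 at Ikzf2 and 2 at Tnfrsf18/Tnfrsf4. Of these enriched windows 5 were called higher in CD8, all at Ikzf2, and 0 higher in CD4. Among the 5, only chr1:69580001-69590000 was enriched in CD4 as well. The others entered through the CD8 library alone, so the filter favoured their call as higher in CD8. Over whole loci the ratio was 1.79 at Tnfrsf18/Tnfrsf4 (1.44 to 2.22), 1.47 at Il2ra (1.19 to 1.82), 1.26 at Foxp3 (1.04 to 1.52) and 0.573 at Ikzf2 (0.525 to 0.625). No locus as a whole was called, and the interval of Ikzf2 did not overlap those of the other 3. Such calls were rare in general: of enriched stretches as wide as Tnfrsf18/Tnfrsf4 0.737% were higher in CD4 and 0.3% in CD8, as wide as Il2ra 0.465% and 0.207%, as wide as Foxp3 0.913% and 0.396%, and as wide as Ikzf2 0.0943% and 0.0472%. Tnfrsf18/Tnfrsf4 was called with the background subtracted, at a log2 ratio of 1.07 against 0.84.

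Ikzf2 had fewer H3K36me3 reads in CD4 than in CD8, the opposite of its H3K4me3. Over the locus there were 808 CD4 and 1454 CD8 reads on inputs of 867 and 889, or 1.41-fold and 2.41-fold over input. CD8 was 1.75-fold higher (1.60 to 1.90), under the fold that makes a call, and in enriched bins alone the log2 ratio was -1.16 against -0.80 and was called. Of the 55 bins enriched in either cell type 44 were enriched in CD8 alone and 1 in CD4 alone, so that choice of bins favoured CD8. Of the 18 windows 16 had ratios below 1, 2 were enriched in CD4 and 11 in CD8. In bins of 1 kb, with at least 10 reads and 2 times the input, 11 of 190 were enriched in CD4 and 54 in CD8, against 5.98% and 5.89% of bins over the genome. A single one of them, chr1:69596001-69597000, with 3 CD4 and 24 CD8 reads, was called higher in CD8, where 0.514% of enriched bins of the genome were higher in CD4 and 0.434% in CD8.

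The difference was largest in the left part of the locus, away from the main H3K4me3 peak. The windows called lay between chr1:69560001 and chr1:69620000, a stretch with 322 CD4 and 752 CD8 reads on 276 and 306 input reads, where CD8 was 2.27-fold higher (1.99 to 2.59). The edges of that stretch were set by the calls themselves, which favours a high ratio, and the interval does not allow for that choice. To the right of the stretch there were 465 and 671 reads, and CD8 was 1.40-fold higher (1.24 to 1.58). The largest single difference was at chr1:69590001-69600000, with 45 CD4 and 138 CD8 reads and a log2 ratio of -1.57 (-2.09 to -1.08). The window with the most reads, chr1:69580001-69590000, had 84 and 188 reads and a log2 ratio of -1.12 (-1.51 to -0.74). At the right end, in the window that holds the middle of the main H3K4me3 peak, the order turned, with 25 CD4 and 15 CD8 reads, which was not called.

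**Figure D4:**
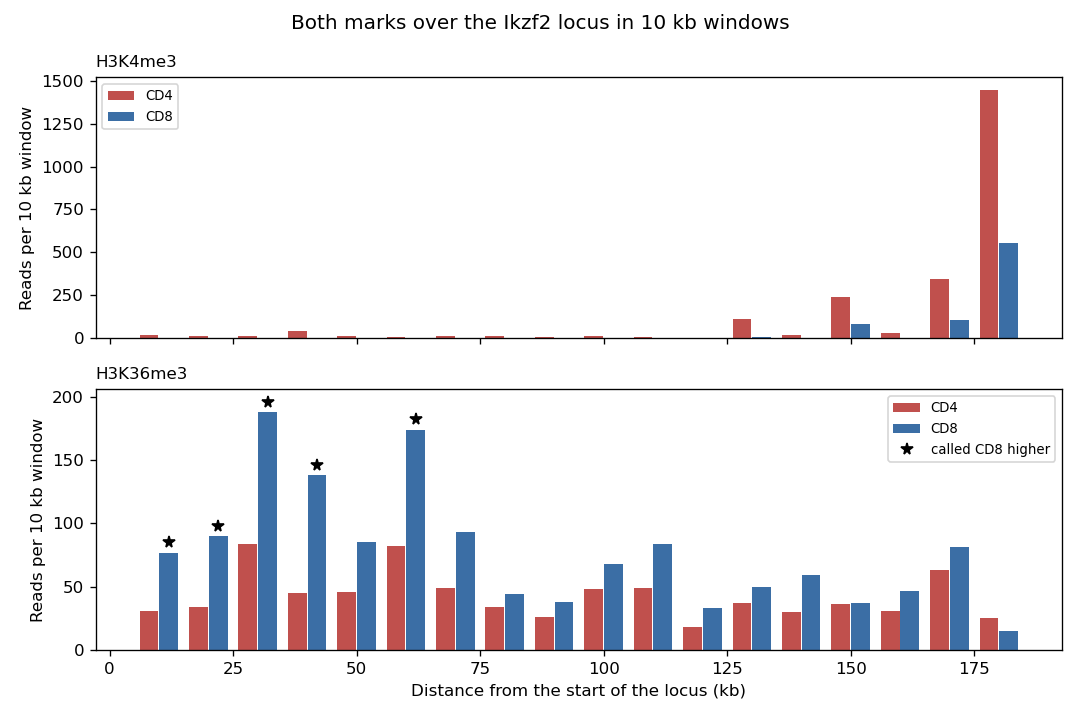
Reads of both marks in the 18 windows of 10 kb inside the Ikzf2 locus, CD4 left of CD8 in each pair, against distance from the start of the locus in kb. Stars mark the 5 H3K36me3 windows called higher in CD8, which lie at the left, while H3K4me3 is concentrated at the right and higher in CD4.

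Of the 881 stretches of 190 kb in the genome where H3K4me3 was called higher in CD4, 22 held 1 or more H3K36me3 windows called higher in CD8, or 2.5%, and 2 held 5 or more, or 0.227%. Those stretches were laid from the start of each chromosome, and the Ikzf2 locus may be in part among them. The combination and the cutoff of 5 windows are those seen at Ikzf2 itself, so these shares describe how common the combination is and test nothing. The CD4 over CD8 ratio of the inputs at the locus was 0.957 (0.870 to 1.05).

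At Foxp3 H3K36me3 was present in both cell types, with 250 CD4 and 205 CD8 reads over 74 and 81 input reads, or 5.11-fold and 3.74-fold over input. The 13 bins enriched in either cell type all lay between chrX:7166001 and chrX:7180000, of which 12 were enriched in CD4 and 9 in CD8. The window chrX:7170001-7180000 had 141 and 115 reads, a log2 ratio of 0.34 (-0.03 to 0.71). The bins under the second H3K4me3 peak held 32 CD4 and 31 CD8 H3K36me3 reads. Ccdc22 is the next gene to the right in RefSeq, and with no mm9 annotation used here these reads were not assigned to either gene. Input on chromosome X was also lower, 1.53 reads per kb in CD4 and 1.54 in CD8 against 4.01 and 3.93 on the autosomes.

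Il2ra had H3K36me3 close to the input, with 224 CD4 and 157 CD8 reads over 286 and 275 input reads, or 1.18 and 0.843 times the input. The background level would give 60.0 CD4 and 60.6 CD8 reads at this locus, so the reads of both cell types exceeded it. With the background subtracted the log2 ratio was 0.83 against 0.56, and it was not called. Neither cell type had an enriched 10 kb window there. All 6 windows had ratios of at least 1. The window with the most reads, chr2:11600001-11610000, had 54 CD4 and 30 CD8 reads. At this depth no window was called.

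At Tnfrsf18/Tnfrsf4 the mark lay in 2 blocks, both in CD4 and CD8, with 234 CD4 and 135 CD8 reads over 202 and 183 input reads. The bin at the left edge had 34 and 22 reads, and lies in the CD4 H3K4me3 peak described above. H3K36me3 continued beyond that edge: the 20 kb to the left, toward Sdf4, had 405 CD4 and 412 CD8 reads, a ratio of 1.01 (0.881 to 1.17), with 16 of 20 bins enriched in CD4 and 19 in CD8. The other block began at chr4:155401001, directly to the right of the highest H3K4me3 bin, and reached 35 CD4 and 21 CD8 reads in chr4:155403001-155404000. CD4 had more reads than CD8 in each of the 6 enriched bins, and none of these bins was called. Of the 4 windows 2 were enriched in both cell types, and chr4:155400001-155410000 had 109 and 58 reads, a log2 ratio of 0.95 (0.48 to 1.44).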

How the data were processed

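Chromatin of mature CD4+ and CD8+ thymic T cells was cut with micrococcal nuclease and precipitated with antibodies to either histone mark, per the labels' protocols. The deposited files hold the start and end of each aligned read, 33 bp wide, and the submitters' processing notes name mm9. The sources used here do not state the aligner, the handling of repeated matches or the removal of duplicates.

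Midpoints of reads on the autosomes, X and Y were counted in bins of 1 kb and windows of 10 kb. Background was measured in 2 kb windows at least 10 kb from any with more than 9 reads of either mark. Ratios were scaled to the median over H3K4me3 bins, or H3K36me3 windows, enriched in both cell types, a centre of 0.695 and 0.970 CD4 reads per CD8 read. Their exact Clopper-Pearson intervals are conditional on the sum, and, with no molecular identifiers, reads may be copies of 1 molecule. The rule was tested on simulated data. Those counts were drawn without repeated reads, so the test does not give the error of the rule in these libraries. Gene members, loci and rules were chosen with earlier results of these data known, and all 5 genes and every peak are named. Other regulatory genes and cell type markers were not analysed here, since no mm9 annotation was used. RefSeq gene order is from GRCm38. Alternatives were 1 read per start position, total-read scaling, pooled inputs, shifted bins, doubled read minimums, stricter folds, subtracted background and other stretches. Counts used pandas 2.3.3 and NumPy 2.4.6 in Python 3.11.15, intervals SciPy 1.17.1 and plots matplotlib 3.10.9.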

Additional observations from a re-analysis of the deposited data

Results flagged for a closer look

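H3K4me3 was also present outside the loci, in the 20 kb on each side, where 5 runs of enriched bins stood above the input. To the left of the Tnfrsf18/Tnfrsf4 locus, chr4:155387001-155390000 had 446 CD4 and 6 CD8 reads over 15 and 12 input reads, and CD4 was 107-fold higher (48.7 to 293). It is the outer part of the peak cut by the locus edge. To the right of that locus, chr4:155444001-155445000 had 21 CD4 and 7 CD8 reads, a ratio of 4.31 (1.77 to 12.0), and chr4:155451001-155453000 had 213 and 441 reads, a ratio of 0.694 (0.587 to 0.820). To the right of Foxp3, chrX:7181001-7183000 had 253 CD4 and 462 CD8 reads, a ratio of 0.787 (0.673 to 0.920). To the right of Il2ra, chr2:11626001-11629000 had 1042 and 1743 reads, a ratio of 0.860 (0.795 to 0.929). The last 3 were enriched in both cell types and not called, so strong peaks shared by both cells lay near 3 of the 4 loci.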

How the results depend on the processing

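Of 273 values under alternatives, 248 kept direction and call, or stayed within 1.5 times the count, and 0 ratios changed sign. Counts have no sign to change. Pooled inputs, stricter folds, doubled minimums and shifted bins leave the H3K36me3 reads of a whole locus unchanged. Those values could move only with the scaling. The same held for many H3K4me3 peaks, whose reads pooled inputs, doubled minimums or stricter folds left unchanged. All 85 peak values stayed above 0 in CD4 over CD8, total-read scaling included. That scaling lowers H3K4me3 log2 ratios by 0.35 and H3K36me3 ratios by 0.04. Under it the interval included 0 at the shared Foxp3 peak, with a log2 ratio of 0.12 (-0.02 to 0.27). It also did so at the shared Il2ra peak and at chr4:155396001-155397000 and chr4:155405001-155407000. With 1 read per start position, Foxp3 H3K4me3 was called at 1.09, the Ikzf2 peak of 13 CD4 reads and 1 CD8 read lost its call at 3.64, Il2ra had 8 enriched CD4 bins, and the genome had 6628 H3K4me3 bins higher in CD4 and 1536 higher in CD8, against 9946 and 2536. Total-read scaling gave 7516 and 5911 bins, a CD4 share of calls of 56.0% against 79.7%. With the stricter fold, Tnfrsf18/Tnfrsf4 H3K4me3 was called at 1.0, Il2ra had 0 enriched CD8 bins of either mark, Ikzf2 had 7 H3K36me3 bins in CD4, and 379 and 160 H3K36me3 windows were called in place of 628 and 254. At the doubled read minimum, H3K36me3 bins numbered 1 in CD4 and 0 in CD8 at Foxp3, 1 and 14 at Ikzf2, and 0 and 0 at Il2ra, which also had 0 H3K4me3 bins in CD8. Pooled inputs gave Il2ra 6 H3K4me3 bins in CD4. Il2ra had 1 H3K36me3 bin in CD4 with shifted bins, and 1 in CD4 and 0 in CD8 with background subtracted, which called Tnfrsf18/Tnfrsf4 H3K36me3 at 1.07. H3K36me3 in enriched bins alone called Ikzf2 higher in CD8 at -1.16, where most of the bins summed were enriched in CD8 alone. For 7 peak settings no enriched bin was left and no value could be given. Doubled minimums and stricter folds lower counts by construction, and otherwise the cause was not tested. Counting the edge peak beyond its locus was chosen after seeing the data. No paired analysis was possible because each group has 1 library. Depth limits bins with few reads in either cell type.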
